A study of Mus musculus with 10 samples.

Results

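Enzymes that handle sulfur amino acids were followed in single Bergmann glial cells, the specialized astroglia whose somata lie beside the Purkinje neurons of the cerebellum. The set comprised Cdo1 and Csad, of cysteine oxidation and taurine synthesis, Cbs and Cth, of transsulfuration, Mat2a and Ahcy, of the methionine cycle, and Gclc and Gclm, which form glutamate-cysteine ligase. These genes were chosen by name with their ratios at P6 and P30 already known, and the age differences are therefore given as a description with no test. The members measured were the probe sets that the array annotation pairs with 1 gene of the list and that have a value in every cell. There were 10 such probe sets, for 7 of the 8 genes, out of 33964 such probe sets for 17919 genes on the whole array. No probe set was paired with Mat2a in the annotation used here.

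Methionine is converted to S-adenosylmethionine, the methyl donor of most methylation reactions, and the product left after methyl transfer is hydrolysed by S-adenosylhomocysteine hydrolase (Ahcy) to homocysteine. Homocysteine is either methylated back to methionine or passed through cystathionine beta-synthase (Cbs) and cystathionine gamma-lyase (Cth) to cysteine. Cysteine is oxidised by cysteine dioxygenase (Cdo1) on the way to hypotaurine and taurine, with cysteine sulfinate decarboxylase (Csad) as the next enzyme, or is joined to glutamate by the catalytic (Gclc) and modifier (Gclm) subunits of glutamate-cysteine ligase as the first step to glutathione. In brain, astroglia are known for their glutathione content and for supplying its precursors to neurons.

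All 10 cells came from the mid-sagittal cerebellum of GFAP-GFP reporter mice, in which GFP is driven by the Gfap promoter. There were 5 cells of age P6, when granule neurons still migrate along the glial fibres, and 5 of age P30, the adult stage, and the amplified cDNA of every cell went to its own Affymetrix Mouse Genome 430 2.0 array. No other treatment or genotype distinguished the ages. Cells were picked by strong GFP and a bushy unipolar shape. By the study's methods their cDNAs had tested positive for Gfap, Fabp7, Sept4 and Slc1a3 and negative for the neuronal markers Nefl and Mtap2. On the arrays the study reported several markers of neurons, oligodendrocytes and microglia as low or absent. The labels call the cells biological replicates but name no animal for any of them, so each age counted as 1 sample, without p-values or standard errors. SDs and ranges describe the 5 cells of an age.

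The deposited values are ratios on a linear scale, in which 1 marks the typical P6 cell for most probe sets, Cth and one Gclm probe set being the exceptions among these enzymes. They show how cells differ for 1 probe set and give no level by which one gene could be set against another. Ratios were cut at a floor of 0.01, which includes 10 deposited values of 0, and a fold against cells at the floor is given as "at least". Differences are means of log2 ratios at P6 minus those at P30, and folds are ratios of geometric means. Over the 33964 probe sets the median difference was 0.05 on the log2 scale, the median SD between cells was 1.11 at P6 and 1.17 at P30, and 64.0% of the probe sets over 3-fold had the higher mean at P6 (76.8% with the arrays scaled to the hybridisation spikes).

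Signs of other cell types were checked with lists of marker genes, as the deviation of a cell from the median of the remaining 4 of the same age. The 15 of 15 astroglial markers measured had medians of -0.39 to 0.24 (log2 ratio) in the P6 cells and -0.43 to 0.54 in the P30 cells, and ratios cannot show how high these levels were. P30 replicate 5 stood apart. Its endothelial and pericyte markers were higher by a median of 3.46 on the log2 scale, with 8 of 10 genes over 3-fold, and its Purkinje neuron markers by 3.30, with 4 of 6 measured genes over 3-fold. Its astroglial markers lay 0.80 below those of the other P30 cells, a log2 deviation of -0.80. In P6 replicate 5 the neuronal markers were higher by 2.47, with 6 of 10 genes over 3-fold. Where a named value or the overlap of the ages turned on either cell, the value without it is given below.

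For sequence context, 5 of the 8 genes had an entry in the table of RefSeq promoters (GRCm38.p6) used here, and Cdo1, Cth and Gclc were not searched. The 250 bases before the annotated start are shown for Ahcy, which had the largest age difference after Cdo1, and for Gclm, which varied most from cell to cell. The Ahcy stretch is chr2:155074498-155074747 on the minus strand, and that of Gclm is chr3:122245307-122245556 on the plus strand. Capitals mark a match on either strand to TGACNNNGC, the core of the antioxidant response element to which the transcription factor NRF2 binds, and both are written 5′ to 3′.
Ahcy: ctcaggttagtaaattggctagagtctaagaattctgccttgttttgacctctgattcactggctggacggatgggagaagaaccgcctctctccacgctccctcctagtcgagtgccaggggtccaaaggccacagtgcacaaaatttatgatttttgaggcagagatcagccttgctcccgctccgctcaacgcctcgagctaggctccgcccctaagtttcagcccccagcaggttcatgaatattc
Gclm: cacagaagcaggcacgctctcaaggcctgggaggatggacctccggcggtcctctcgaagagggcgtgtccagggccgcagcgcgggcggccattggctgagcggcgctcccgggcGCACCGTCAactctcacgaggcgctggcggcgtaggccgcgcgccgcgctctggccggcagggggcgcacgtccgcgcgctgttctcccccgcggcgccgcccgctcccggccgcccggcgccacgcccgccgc
The 1 match in Gclm, GCACCGTCA on the strand shown, begins 134 bases before the start. Glutamate-cysteine ligase genes are known as NRF2 targets. Such a match was present in 10.2% of the 32851 promoter stretches of this length, and in none of the stretches of Ahcy, Csad, Cbs and Mat2a. A match is a description of letters and not a binding site.

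Of the 10 probe sets, 2 had a mean more than 3-fold higher at P6, those of Cdo1 and Ahcy, and 0 had one more than 3-fold higher at P30. Over all probe sets, 12.3% were over 3-fold higher at P6 and 6.91% over 3-fold higher at P30, together 19.2%. All 5 P6 cells lay above all 5 P30 cells for 1 of the 10, Cdo1, against 1.96% of all probe sets, and in the other direction for 0 of the 10, against 1.21%, together 3.17%. The ages overlapped for the remaining 9. The genes were chosen with these differences known, so nothing is read from the counts. The mean was higher at P6 for the 6 probe sets of Cdo1, Csad, Cbs, Cth and Ahcy, and higher at P30 for the 4 of glutamate-cysteine ligase. Only the differences of Cdo1 and Ahcy were over 3-fold. The direction of Cth turned with medians (-0.38) and without P6 replicate 3 (-0.79), and that of Gclm 1439050_at without P6 replicate 1 (0.06). The median difference of the 10 was 0.37.

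Cdo1 catalyses the first step of cysteine oxidation. Its ratio was 1.73 in P6 replicate 1, 1.00 in replicate 2, 0.762 in replicate 3, 0.931 in replicate 4 and 1.02 in replicate 5, and 0.01 in each of the 5 P30 cells. The groups did not overlap, and the P30 cells could not be told apart because all were at the floor. At P6 the mean log2 ratio was 0.07 ± 0.44 (SD, n = 5 cells), and at P30 it was -6.64, so that the transcript was at least 105-fold higher at P6. Raising the floor to 0.05 or to 0.1 turned the log2 difference of 6.71 into 4.39 or 3.39, so that its size is set by the floor. Only 8 probe sets on the array (0.0236%) had all 5 P30 cells and no P6 cell at the floor. At P6 the cells were alike by the standard of the array, since only 13.3% of probe sets had a smaller SD between P6 cells. In every alternative that kept the floor at 0.01 the log2 difference lay between 6.53 and 6.99.

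Cysteine sulfinate decarboxylase, encoded by Csad, acts directly after Cdo1 and did not share its pattern. Its P6 ratios were 3.26, 1.00, 4.63, 0.799 and 0.994 in replicates 1 to 5, and its P30 ratios were 0.807, 0.0876, 0.599, 1.27 and 2.67. P6 replicates 1 and 3 were the high cells, P30 replicate 2 was the low one, and the other 7 cells overlapped freely. The mean log2 ratio was 0.72 ± 1.15 at P6 and -0.56 ± 1.84 at P30, a 2.42-fold difference that was smaller than the SD between P30 cells. Without P30 replicate 5, whose endothelial and Purkinje markers were higher than in the other P30 cells, the log2 difference went from 1.28 to 1.77, past 3-fold. Without P30 replicate 2 it was 0.54, and with medians in place of means it was 0.31. The part of those markers in the Csad value was not tested.

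Cbs, which condenses homocysteine with serine and is known in brain mainly from astroglia, was measured by 2 probe sets. For probe set 1423844_s_at the P6 ratios were 1.05, 0.547, 1.00, 1.26 and 0.706 in replicates 1 to 5, and the P30 ratios were 1.05, 0.713, 0.163, 0.092 and 0.576. The P6 cells lay close together, and P30 replicates 3 and 4 lay below all of them. The difference was 1.26 on the log2 scale, with an SD of 0.48 at P6 and 1.498 at P30. It reached 1.64, past 3-fold, without P30 replicate 1. Probe set 1425623_a_at gave P6 ratios of 1.05, 0.0644, 1.00, 1.39 and 0.76 and P30 ratios of 0.542, 0.82, 0.288, 0.261 and 0.705. P30 replicates 3 and 4 were again the lowest P30 cells, but P6 replicate 2 was lower still. The difference was 0.32, and 1.12 without P6 replicate 2, each under 3-fold.

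Cth, the enzyme that releases cysteine from cystathionine, was near its lowest values in most cells of both ages. The P6 ratios were 0.0216, 0.0295, 1.95, 0.0492 and 0.0209 in replicates 1 to 5, and the P30 ratios were 0.0384, 0.0646, 0.0292, 0.0342 and 0.118. P6 replicate 3 was the one cell with a ratio near or above 1, and the remaining 9 cells lay between 0.0209 and 0.118. The log2 difference was 0.43 with all cells and -0.79 without P6 replicate 3, and 2.87 when arithmetic means of the ratios were compared, so that 1 cell set its direction. A ratio of 1 has another meaning for this probe set: it equals the median of the 2 highest P6 cells and not of all 5, as it did for 5.48% of the probe sets with complete values. Among the other members this held only for Gclm 1439050_at, with its 4 highest P6 cells, as for 13.0% of probe sets.

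Ahcy removes the S-adenosylhomocysteine that inhibits methyltransferases. Its ratios in P6 replicates 1 to 5 were 0.327, 0.056, 1.00, 1.59 and 1.32. In P30 replicates 1 to 5 they were 0.01, 0.0101, 0.01, 0.01 and 0.209, with 3 cells at the floor and replicate 2 just above it. The groups overlapped only because P30 replicate 5 lay above P6 replicate 2. The mean log2 ratio was -0.94 ± 2.01 at P6 and -5.76 ± 1.96 at P30, so that the transcript was at least 28.3-fold higher at P6. The log2 difference of 4.82 became 5.70 without P30 replicate 5 and 5.63 without P6 replicate 2, and without either of them the ages no longer overlapped. It fell to 2.34, still over 3-fold, with a floor of 0.1. P30 replicate 5 is the cell whose endothelial and Purkinje neuron markers were higher than in the other P30 cells, and their part in its Ahcy ratio was not tested.

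Gclc, the catalytic subunit of glutamate-cysteine ligase, had a higher mean at P30 in both of its probe sets, by less than the SD between cells. For probe set 1424296_at the P6 ratios were 0.588, 0.662, 1.00, 4.11 and 25.6 in replicates 1 to 5, and the P30 ratios were 4.51, 1.21, 0.789, 50.4 and 9.40. P6 replicate 5 and P30 replicates 4 and 5 were the highest cells, and both ages had cells near 1. For probe set 1455959_s_at the P6 ratios were 0.258, 0.167, 5.24, 1.69 and 1.00, and the P30 ratios were 1.38, 2.23, 6.90, 0.0931 and 1.68. Here replicate 3 was the highest cell at each age, and P30 replicate 4, the highest cell by the other probe set, was the lowest of all. The log2 difference was -1.13 for the first probe set and -0.63 for the second.

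Gclm, the modifier subunit that raises the efficiency of Gclc, spread over a wider range than any other member. For probe set 1418627_at the P6 ratios were 1.00, 0.01, 0.0296, 2.97 and 1.07 in replicates 1 to 5, and the P30 ratios were 3.01, 4.13, 2.67, 0.011 and 0.36. The cells thus fell at or near the floor (P6 replicates 2 and 3 and P30 replicate 4) or at 0.36 and above, at both ages. For probe set 1439050_at the P6 ratios were 0.0161, 3.81, 1.51, 0.45 and 0.493, and the P30 ratios were 0.0184, 10.9, 6.68, 2.47 and 0.334. By this probe set replicate 1 was the low cell of each age, while the cells at or near the floor by the other probe set had ratios of 1.51 to 3.81. The SD at P6 was 3.61 and 2.98 on the log2 scale, larger than for 98.5% and 93.0% of all probe sets, and at P30 it was 3.59 and 3.77, larger than for 97.4% and 98.3%. The log2 differences of -1.43 and -1.15 were well inside this spread.

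Single cells decided on which side of 3-fold the ligase subunits lay. Leaving out 1 cell put 1 or 2 of the 4 probe sets over 3-fold higher at P30 for 9 of the 10 cells, P6 replicate 3 being the exception. For Gclm 1418627_at the log2 difference was -1.93 without P6 replicate 1, -2.32 without P6 replicate 4, -1.95 without P6 replicate 5, -2.91 without P30 replicate 4 and -1.65 without P30 replicate 5. For Gclm 1439050_at it was -1.91 without P6 replicate 2, -2.60 without P30 replicate 1 and, with the direction turned, 0.06 without P6 replicate 1. For Gclc 1424296_at it was -2.03 without P6 replicate 5, -1.61 without P30 replicate 2 and -1.76 without P30 replicate 3. Other omissions brought the ages close together. Gclm 1418627_at went to -0.27 without P6 replicate 2 and to -0.66 without P6 replicate 3, Gclm 1439050_at to -0.30 without P30 replicate 2 and to -0.47 without P30 replicate 3. Gclc 1424296_at went to -0.26 without P30 replicate 4 and Gclc 1455959_s_at to -0.02 without P30 replicate 3. With both P6 replicate 5 and P30 replicate 5 left out it was -1.77 for Gclc 1424296_at and -2.18 for Gclm 1418627_at.

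Probe sets of the same gene were compared cell by cell for the 3 members with a pair of them. Taken over the 10 cells, the root mean square of the log2 difference was 1.16 for Cbs, 3.70 for Gclc and 5.18 for Gclm. Among the 4624 genes of the array with 2 such probe sets the median was 1.96, and the value was smaller than that of Cbs in 16.7% of these genes, smaller than that of Gclc in 89.4% and smaller than that of Gclm in 97.8%. The probe sets lay more than 3-fold apart in 1 cell for Cbs, 7 cells for Gclc and 6 cells for Gclm, where the median gene had 4. The 2 measurements of Cbs thus lay within 3-fold of each other in every cell but P6 replicate 2. No value is given for Gclc or Gclm as a whole, since their probe sets ordered the cells differently.

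**Figure D1:**
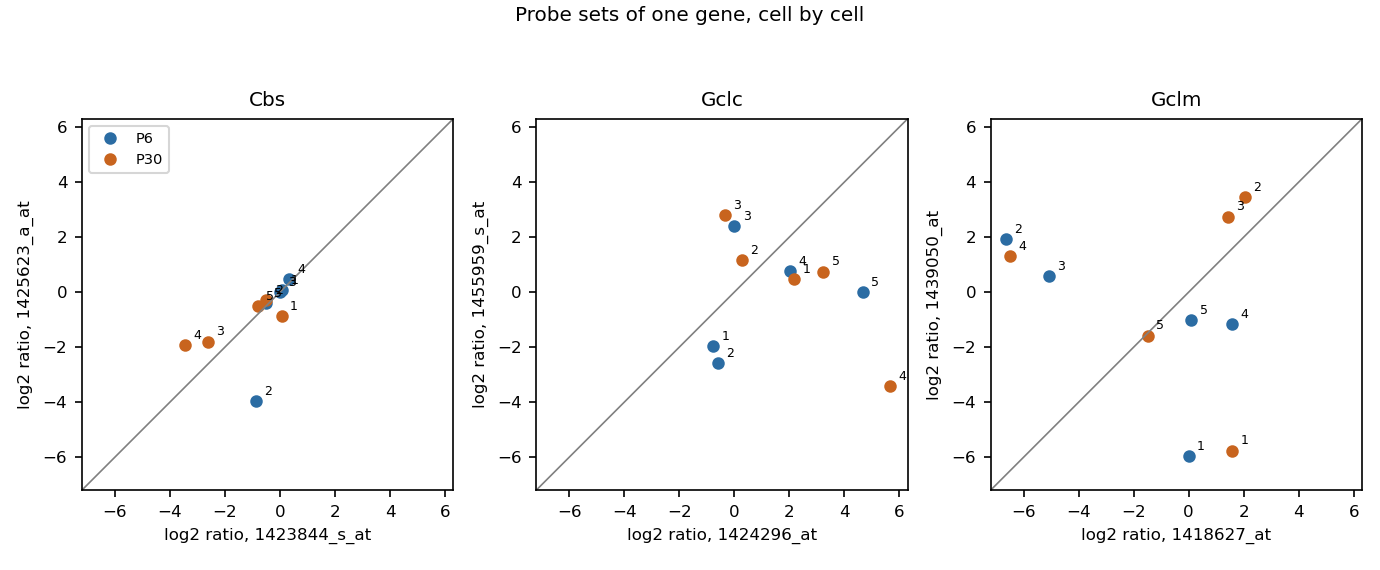
Log2 ratio of 10 cells by one probe set (x axis) against the other probe set of the same gene (y axis), for Cbs, Gclc and Gclm, with P6 cells in blue, P30 cells in orange, replicate numbers beside the points and the line of equality in grey. The Cbs cells lie along the line except P6 replicate 2, whereas those of Gclc and Gclm scatter away from it.

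Variation between cells of one age was above the median of the array (1.11 at P6 and 1.17 at P30) for 8 of the 10 probe sets at P6 and for 7 at P30. Cdo1 was under it at both ages, Cbs at P6 by probe set 1423844_s_at and at P30 by the other, and Cth at P30. For Cdo1 at P30 all 5 cells were cut at the floor, so their spread is not known. The median SD of the 10 was 2.01 at P6 and 1.90 at P30. No cell was high or low for the whole set. The median deviation of a cell from the other 4 of its age lay between -1.26, in P6 replicate 2, and 0.82, in P6 replicate 4. P6 replicate 2 had 5 probe sets more than 3-fold below the other P6 cells and 1 more than 3-fold above them.

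The array profile most like that of Cdo1 was sought by the root mean square difference of log2 ratios over the 10 cells. The 5 nearest genes were Rps28, a ribosomal protein gene, at 0.45, Rlbp1, of retinaldehyde binding, at 0.45, Septin9, a cytoskeletal GTPase, at 0.51, 1700086L19Rik at 0.59 and Timmdc1, an assembly factor of a respiratory chain complex, at 0.64. All 5 had the P6 cells above the P30 cells. Rps28 also had its 5 P30 cells at the floor, against 4 for Rlbp1 and 1700086L19Rik, 2 for Septin9 and 1 for Timmdc1. The lowest and highest P6 ratios were 0.606 and 1.28 for Rps28, against 0.762 and 1.73 for Cdo1. The likeness rests on values cut at the floor and on the same 10 arrays, and it says nothing of shared control.

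Around these enzymes, 46 further genes of the pathways were listed, with earlier results of the array known, and 42 of them were measured by 78 probe sets. Of the 78 probe sets, 18 (23.1%) were over 3-fold higher at P6 and 10 (12.8%) over 3-fold higher at P30, where the array had 12.3% and 6.91%. All P6 cells lay above all P30 cells for 1 of them and the reverse held for 0, counts that became 2 and 4 without P30 replicate 5 and 2 and 2 without P6 replicate 5. With all cells, such separation was found for 1.96% and 1.21% of the probe sets of the array. The median log2 difference was 0.07, close to the 0.05 of all probe sets. With scaling to the hybridisation spikes the counts were 23 and 6.

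**Figure D2:**
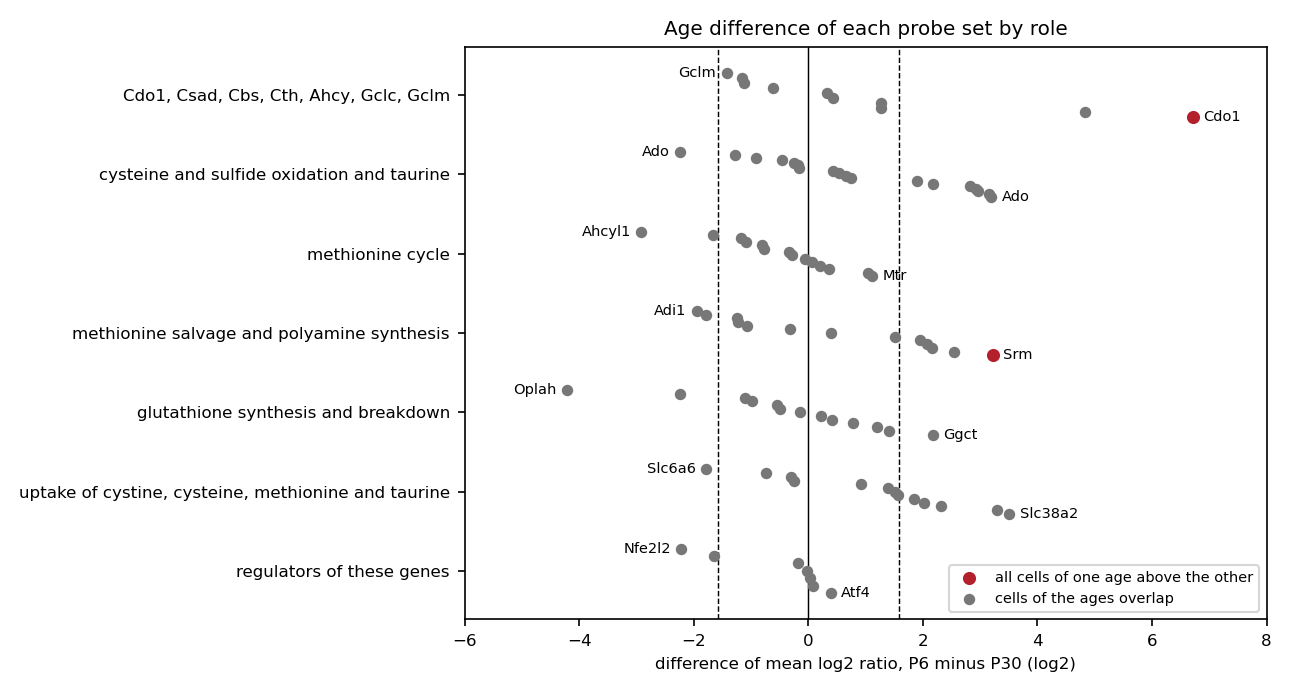
Difference of mean log2 ratio, P6 minus P30 (x axis), of each probe set by role (y axis), with 3-fold as dashed lines and the lowest and highest gene of each role named. Cdo1 and Srm, in red, are the probe sets of which all cells of one age lie above the other, and all others, in grey, overlap.

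Spermidine synthase, encoded by Srm, uses a decarboxylated form of S-adenosylmethionine to make polyamines, and was the 1 listed gene with separate ages. Its P6 ratios were 1.06, 0.192, 0.788, 1.00 and 1.11 in replicates 1 to 5, and its P30 ratios were 0.0377, 0.0653, 0.0664, 0.111 and 0.138. No cell was at the floor, and the lowest P6 cell, replicate 2, lay above the highest P30 cell, replicate 5. The transcript was 9.34-fold higher at P6, with a log2 SD of 1.07 at P6 and 0.73 at P30. In the same list, 5 of 13 probe sets (38.5%) were over 3-fold higher at P6 and 2 (15.4%) over 3-fold higher at P30. The array had 12.3% and 6.91%. Mtap, which splits the methylthioadenosine left by polyamine synthesis, had a log2 difference of 2.54 for probe set 1424425_a_at, with cells at the floor at both ages. This difference became 1.39, under 3-fold, without P6 replicate 2 and between 1.602 and 3.51 without any other cell. The other Mtap probe sets had differences of 2.07 (1424426_at), 1.96 (1451346_at) and 0.40 (1451345_at). Several of the probe sets over 3-fold higher at P6 were thus of Mtap, and those at P30 were of Adi1 alone.

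Among enzymes of cysteine and sulfide oxidation and of taurine, 7 of 18 probe sets (38.9%) were over 3-fold higher at P6. At P30, 1 (5.56%) was over 3-fold higher. The shares of the array were 12.3% at P6 and 6.91% at P30. The median difference of the 18 was 0.60. Ado, the dioxygenase that oxidises cysteamine to hypotaurine, was at least 9.15-fold higher at P6 for probe set 1435923_at. Its P30 cells reached from the floor, in replicate 3, to 4.58 in replicate 1, above 4 of the 5 P6 cells, and leaving out 1 cell gave 4.25-fold (without P30 replicate 3) to 19.7-fold (without P30 replicate 1). Other probe sets of Ado had differences of -2.24 (1438484_at), 2.17 (1442135_at, 1.54 without P6 replicate 1) and -0.19 (1442133_at). Got2, a mitochondrial aspartate aminotransferase that can act on cysteine sulfinate, had a difference of 3.15 for probe set 1417715_a_at, with cells at the floor at both ages, and of 2.50 (without P6 replicate 3) to 4.47 (without P30 replicate 3) with 1 cell left out. The other Got2 probe sets did not share this size, with differences of 0.74 (1417716_at), -0.25 (1430397_at) and -0.91 (1447768_at). Ado 1438484_at was chosen after its value was seen, and its ages no longer overlapped without P30 replicate 5 (log2 difference -2.61) or without P6 replicate 5 (-2.58).

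In the methionine cycle, 0 of 14 probe sets of the other genes were over 3-fold higher at P6 and 2 (14.3%) were so at P30. The shares of the array were 12.3% at P6 and 6.91% at P30. The median difference of the 14 was -0.31. Gnmt, a glycine methyltransferase that consumes S-adenosylmethionine, was 3.18-fold higher at P30. Its P30 ratios were 7.37 to 9.06 in replicates 1 to 4 and 0.983 in replicate 5, and its P6 ratios ran from 0.567 to 7.06. Without P30 replicate 5 it was 4.85-fold higher at P30 with no overlap, whereas without any one of the 4 other P30 cells or of P6 replicates 1, 2 and 5 it was 2.43-fold to 2.93-fold higher. Ahcyl1, which encodes an Ahcy-like protein that binds the inositol trisphosphate receptor, was at least 7.53-fold higher at P30 for probe set 1426831_at, since P6 replicates 2 and 3 had ratios of 0.0117 and 0.01. Its P6 replicate 1, at 4.36, was nevertheless the highest of the 10 cells. Leaving out 1 cell gave 3.48-fold (without P6 replicate 3) to 15.9-fold (without P6 replicate 1). The other Ahcyl1 probe sets did not share this size, with log2 differences of -0.34 (1425576_at) and -0.78 (1426830_a_at) and no cell at the floor.

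In glutathione synthesis and breakdown, 1 of 13 probe sets (7.69%) was over 3-fold higher at P6 and 2 (15.4%) were so at P30. The array had 12.3% and 6.91%. Oplah, which turns 5-oxoproline back into glutamate, was 18.6-fold higher at P30 by its means, and 60.9-fold without P6 replicate 3. Its P30 ratios were 511, 32.2, 2.65, 66.2 and 153 in replicates 1 to 5, and its P6 ratios were between 0.632 and 1.18 in 4 cells and 335 in replicate 3. All 5 P30 cells lay above those 4 P6 cells, and P6 replicate 3 lay above 4 of the P30 cells. Ggt7, of the gamma-glutamyltransferase family, was 4.74-fold higher at P30, with 1 high P6 cell, replicate 4, at 43.7, and 10.2-fold without that cell. Gss, the enzyme after glutamate-cysteine ligase, had differences of -0.99 and -1.11 for its 2 probe sets and was named after its values were seen.

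Of the transporters that bring in cystine, cysteine, methionine and taurine, 5 of 13 probe sets (38.5%) were over 3-fold higher at P6. At P30, 1 (7.69%) was over 3-fold higher. The shares of the array were 12.3% at P6 and 6.91% at P30. The median difference of the 13 was 1.51. Slc38a2, a neutral amino acid carrier, was 11.4-fold higher at P6 for probe set 1429593_at, where P6 replicate 2, at 0.0953, lay below P30 replicate 5, at 0.173. Without either of these cells the ages did not overlap, and the fold was 18.2 without the P6 cell and 15.1 without the P30 cell. The other Slc38a2 probe sets were at least 3.58-fold (1426722_at, with P30 replicate 3 at the floor) and 2.64-fold (1429594_at) higher at P6, with overlap. Slc7a5, which carries large neutral amino acids such as methionine, was at least 9.77-fold higher at P6. Its P6 replicate 2, at 0.0856, lay below P30 replicates 1 and 2, at 0.109 and 0.608. Leaving out 1 cell gave 6.13-fold (without P30 replicate 4) to 17.1-fold (without P30 replicate 2). Slc6a6, the taurine transporter, chosen after its values were seen, had a difference of 1.51, -0.73 or -1.79 depending on the probe set. The regulators Nfe2l2, Keap1 and Atf4 had 7 probe sets. Of these, 0 were over 3-fold higher at P6 (array 12.3%) and 2 (28.6%) were so at P30 (array 6.91%). Both were of Nfe2l2, which encodes NRF2, at 3.13-fold and 4.66-fold, and their cells overlapped between the ages. The value of 3.13 belongs to probe set 1457117_at, whose highest cell was P30 replicate 5 at 7.39, and became 2.04 without that cell. It was also under 3-fold without P6 replicate 5 (2.37), P6 replicate 1 (2.76) or P30 replicate 3 (2.80).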

How the data were processed

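Amplified cDNA of 10 single cells, 5 of each age, was hybridised to 1 array each. According to the methods and the labels, the authors processed the scans with RMA in GeneSpring GX 7.3, set values under 0.01 to 0.01, scaled every array to its 50th percentile, then every probe set to a median, and deposited the resulting linear ratios. The cDNA was primed with oligo-dT and amplified by PCR from 1 cell, a step known to add spread between arrays. No genome build was given in the sources used here. In the deposited ratios, 1 equalled the median of all 5 P6 cells in 69.6% of complete probe sets and the median of only the highest P6 cells in nearly all others (tolerance 0.002).

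Of 45101 probe sets, 43608 were complete over the 10 cells. The remaining 1493, of them 1013 with P30 values alone, were not used, and 10 values of 0 were set to 0.01. The annotation of the platform paired 34958 probe sets with 1 gene, 932 with several and 9211 with none, and symbols were updated through Entrez identifiers of GRCm38.p6 for 34754. The 33964 complete probe sets with 1 gene were analysed on the log2 scale with Python 3.11.15, NumPy 2.4.6, pandas 2.3.3 and Matplotlib 3.10.9, and the steps were tested on simulated data. Samples were grouped by the age in their titles.

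Members, gene lists and marker lists were chosen with earlier results of these data known. Named are all member probe sets, pathway probe sets over 3-fold with separate ages, the 2 with the largest absolute difference of each list, and the 5 genes nearest to Cdo1. The one-way ANOVA of the study took cells as replicates and was not repeated. The number of arrays, 5 an age, limits the precision, and signal over background was not used here. Alternatives were other array scalings, floors, averages, size rules, omission of probe sets named _x_at or _s_at, and each cell left out.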

Additional observations from a re-analysis of the deposited data

Results flagged for a closer look

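In 3 of 19 groups of 5 cells, 1 cell lay far from the other 4 of its age by Dixon's criterion (gap over range above 0.71). The criterion is set to flag about 1 group in 20 of independent, normal values. These groups share the same cells and hold values cut at the floor, so their count is not compared with chance. The Ahcy ratio of P30 replicate 5 was 0.209, with the other P30 cells at 0.01 to 0.0101. As those cells were at or just above the floor, any cell clearly above it would have been flagged. The Cth ratio of P6 replicate 3 was 1.95, with the other P6 cells at 0.0209 to 0.0492. The ratio of Cbs probe set 1425623_a_at in P6 replicate 2 was 0.0644, with the other P6 cells at 0.76 to 1.39, while the other Cbs probe set had 0.547 in that cell.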

How the results depend on the processing

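No paired analysis was possible because each array is 1 cell of an unnamed animal and no result comes from a test. Of 178 recomputed differences of the 10 probe sets, 174 moved by less than the SD between cells. With 1 cell of an age left out no other outcome was possible, since 1 of 5 cells cannot shift a mean that far. Omitting probe sets named _x_at or _s_at left the remaining values unchanged. The 174 is therefore no measure of stability. Of the 178, 3 changed sign, for Cth (-0.38 with medians, -0.79 without P6 replicate 3) and Gclm 1439050_at (0.06 without P6 replicate 1). The 4 that moved further than the SD were those of Cdo1 (4.39 and 3.39) and Ahcy (2.34) with raised floors and of Cth (2.87) with arithmetic means. The count of enzyme probe sets over 3-fold higher at P30, 0 with all cells, was 2 by medians, 1 by arithmetic means, 3 with a 2-fold rule and 2 with P6 replicate 5 and P30 replicate 5 both left out, an alternative chosen after seeing the data. That over 3-fold higher at P6, 2 with all cells, was 4 with the 2-fold rule. The count of probe sets in which every P6 cell exceeded every P30 cell went from 1 to 2 with both of those cells left out. Of the other pathway probe sets, 6 with spike scaling and 17 with the 2-fold rule were higher at P30, in place of 10. Leaving out 1 cell at a time gave 2 to 3 enzyme probe sets over 3-fold higher at P6, 0 to 2 at P30, 1 to 2 with all P6 cells above and 0 to 0 with all P30 cells above, and 15 to 21 and 7 to 13 pathway probe sets. Median scaling lowered and spike scaling raised every difference, by 0.16 and 0.28 at the median of all probe sets (shifts of -0.16 and 0.28), and neither changed a count of the enzymes. Values at the floor of 0.01 have no order, which limits Cdo1 and Ahcy at P30.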
